A study of Mus musculus with 16 samples.

Results

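The genes described here are 10 members of the Toll-like receptor (TLR) and nuclear factor kappa B (NF-kB) pathway: the receptors Tlr2, Tlr3, Tlr4 and Tlr7, the co-receptor Cd14, the interleukin 1 receptor Il1r1, the danger ligand Hmgb1, the adaptor Myd88, the NF-kB subunit Nfkb1 and the NF-kB inhibitor Nfkbia. They were chosen by name for their place in the pathway, and all 10 were found among the 24062 genes of the count table. RNA-seq was performed on the whole brain, cerebellum included, of 16 female mice of the inbred strain C57BL/6J, taken in adolescence on postnatal day 45. There were 4 mice in each of 4 groups. WW mice had water in every bottle. NW (Nicotine-Water) mice had nicotine at 200 µg/ml in tap water for 22 h per day and water in the remaining hours. Water-Ethanol mice had water for the 22 h and, from postnatal day 42, a bottle of 20% v/v ethanol in daily sessions of 2 h under the drinking-in-the-dark protocol, of which the last ran for 4 h and was followed by dissection. NE (Nicotine-Ethanol) mice had both the nicotine and the ethanol. Nicotine was removed during the sessions, so NW and NE mice had none in the last 4 h before dissection. In its behavioural data the paper reports more ethanol drunk and higher blood ethanol in NE than in Water-Ethanol mice on the last day. The mice drank by themselves, but nicotine filled every bottle for the 22 h and ethanol came in a single bottle. No other fluid was offered at those times. Each library came from a single brain, and the mice of each group were separate animals.

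TLRs are pattern recognition receptors. They bind microbial products and, in the absence of infection, molecules released by damaged cells. Tlr2 and Tlr4 act at the cell surface, whereas Tlr3 and Tlr7 recognise double-stranded and single-stranded RNA in endosomes. Most TLRs and Il1r1 signal through Myd88 and the ubiquitin ligase Traf6 to the IκB kinase complex, while Tlr3 signals through the adaptor Ticam1. The kinase complex marks the inhibitor Nfkbia (IκBα) for destruction, which frees NF-kB dimers to enter the nucleus and transcribe cytokine and chemokine genes, and Nfkbia itself. In brain these receptors are known chiefly from microglia, with Tlr3 also present in astrocytes, and the TLR4 pathway has been studied as a route by which ethanol activates neuroimmune signalling.

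Nfkbia is a known NF-kB target, and promoters of the 10 genes were searched for the NF-kB motif. The stretches before the start sites of Nfkbia, Tlr2 and Tlr3, which held a match, are shown with the motif in capitals. Windows without a match are not shown. The promoter sequences are those of RefSeq (GRCm38.p6), which held a window for 6 of the 10 genes, 8 windows in all. The motif searched, on both strands, was the NF-kB consensus of p50 and RelA, and it was looked for in the 250 bases before each start. All 3 genes lie on the minus strand and are written 5′ to 3′ in the direction of transcription, Tlr3 only as far as its first exon in the count table.
Nfkbia, chr12:55492648-55492897: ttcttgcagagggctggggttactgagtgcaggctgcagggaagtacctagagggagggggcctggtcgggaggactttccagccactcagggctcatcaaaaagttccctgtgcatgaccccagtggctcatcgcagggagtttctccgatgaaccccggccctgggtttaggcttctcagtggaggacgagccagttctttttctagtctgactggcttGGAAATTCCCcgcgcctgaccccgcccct
Tlr2, chr3:83841609-83841858: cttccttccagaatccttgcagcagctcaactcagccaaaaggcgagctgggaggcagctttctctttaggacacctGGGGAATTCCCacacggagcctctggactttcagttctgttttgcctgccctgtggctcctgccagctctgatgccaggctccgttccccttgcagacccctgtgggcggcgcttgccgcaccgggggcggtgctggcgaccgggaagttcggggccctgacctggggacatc
Tlr3, chr8:45410540-45410630: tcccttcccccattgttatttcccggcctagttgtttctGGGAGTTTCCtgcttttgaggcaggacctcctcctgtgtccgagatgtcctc
Windows with at least 1 match were those of Nfkbia, Tlr2 and Tlr3 and 1 of the windows of Il1r1, which lies inside the span of that gene in the count table and is not shown, 4 of 8 windows, against 7.25% of the 32851 windows in the table. The capitals of Tlr2 hold 3 overlapping matches over both strands. A match is a description of the letters and not evidence of binding.

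Counted reads per mouse ranged from 27100352 to 32880979, no libraries were identical, and Pearson's r of log2 normalized counts between any pair of mice across genes was 0.991 to 0.9973. A pair of libraries stood apart from the rest. WW replicate 4 and NW replicate 3 were low in cerebellar genes: Gabra6, a GABA receptor subunit of cerebellar granule cells, was at 36.24 CPM (read counts divided by the TMM-scaled library size) in the former and 56.04 CPM in the latter, against 115.9 to 152.0 CPM in the other 14 mice. Replicates are numbered in the order of the deposited samples, so the numbers pair no mice. Reads of Rn45s, the ribosomal RNA precursor, were at 4165 to 40660 CPM in NW mice, highest in NW replicates 3 (40660 CPM) and 1 (13320 CPM), against 2772 to 6119 CPM in the other 3 groups. Prl, a pituitary hormone, had 221 reads in NW replicate 3 and at most 50 in any other mouse. Calls of the 10 genes and of the pathway genes that changed without WW replicate 4, or without both mice low in cerebellar genes, are given beside the gene.

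All 10 genes were expressed in every brain (plot of FPKM per mouse), at levels that spanned 152-fold. Levels are given as FPKM, fragments counted per kilobase of each transcript and corrected for library size, which allows comparison between genes. Hmgb1, a chromatin protein that acts as a TLR ligand when released from cells, had the highest level at 89.8 ± 6.82 FPKM (SD, n = 16). Nfkbia followed at 13.4 ± 1.45 FPKM and Nfkb1, which encodes the p105 precursor of the p50 subunit, at 5.47 ± 0.358 FPKM. The ranges of these 3 genes over the 16 mice did not overlap with one another, whereas that of Nfkb1 overlapped with Tlr3, the next below it. Tlr3 was the most abundant of the receptors at 3.91 ± 0.499 FPKM and lay below Nfkb1 in 15 of 16 mice. Myd88, the adaptor, was at 3.00 ± 0.224 FPKM and was below Tlr3 in 16 of 16 mice, although their ranges overlapped between mice. Il1r1 was at 1.40 ± 0.128 FPKM, in a range that did not overlap with that of Myd88. Cd14, a surface protein that passes lipopolysaccharide to Tlr4, was at 1.19 ± 0.181 FPKM, and Tlr7 at 1.06 ± 0.187 FPKM. Il1r1 exceeded Cd14 in 13 of 16 mice and Cd14 exceeded Tlr7 in 11 of 16, so this middle part of the order lay within the spread between mice. Tlr4 was at 0.680 ± 0.0878 FPKM and Tlr2 at 0.589 ± 0.0741 FPKM, the lowest level, with Tlr4 above Tlr2 in 13 of 16 mice. Expressed as CPM per kilobase of exon, the counts gave the same ranks for all 10 genes.

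**Figure D1:**
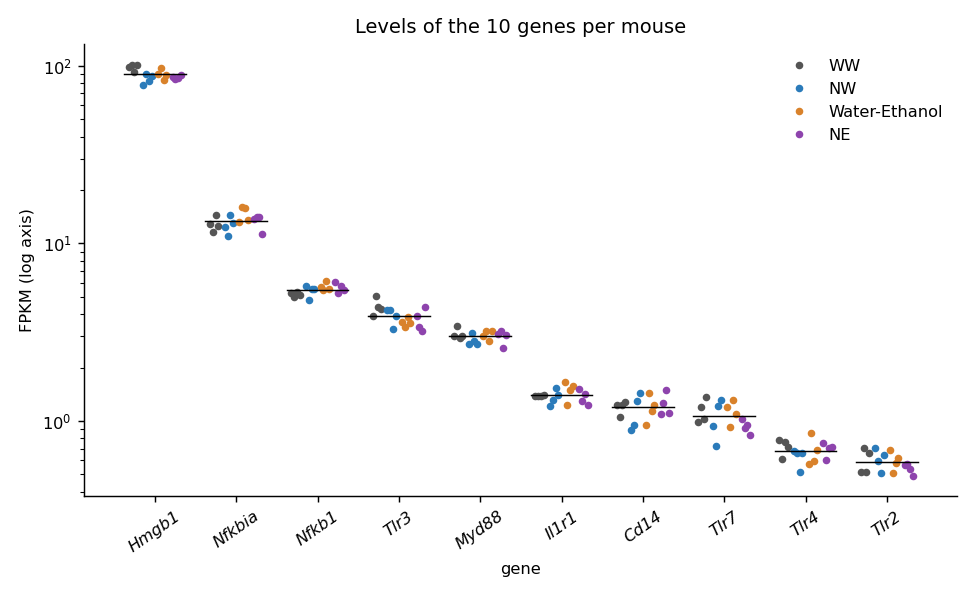
FPKM (log axis) of the 10 genes in each of the 16 mice, with the genes ordered by mean level (black line, mean over 16 mice) and the points coloured by group. Hmgb1 averaged 89.8 FPKM, whereas Tlr4 and Tlr2 lay below 1 FPKM in every mouse.

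Hmgb1 rested on 4681 to 6541 reads per mouse and Tlr2 on 37 to 58. For Tlr2, Myd88 and Tlr4 the coefficient of variation (CV) within groups, 12.6%, 7.74% and 12.3%, was close to the CV expected from read counting alone (counting error only), 14.7%, 7.91% and 11.5%. For Hmgb1 (5.40% against 1.35%), Nfkbia (10.5% against 4.28%), Tlr3 (10.9% against 4.55%) and Tlr7 (17.1% against 9.39%) the spread between mice was larger than the counting error. Il1r1 (9.71% against 7.25%), Cd14 (17.4% against 14.6%) and Nfkb1 (5.77% against 3.91%) lay between.

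The question of each pairwise comparison was whether nicotine, ethanol or their combination altered expression relative to WW, and a 2 × 2 fit of all 16 mice gave the ethanol effect over both nicotine states, the nicotine effect over both ethanol states and their interaction. The WW mice were the controls of the 3 pairwise comparisons, so those comparisons are not independent. None of the 10 genes passed an adjusted p-value (Benjamini-Hochberg) under 0.05 with edgeR's quasi-likelihood test in any of the 6 comparisons, and none did with limma on FPKM. DESeq2 called 1 of the 10 in each of 4 comparisons, Hmgb1 in 3 of them and Tlr3 in the other. DESeq2 called 0.802% of all tested genes for NW, 3.94% for Water-Ethanol, 3.38% for NE, 7.01% for the ethanol effect, 0.667% for the nicotine effect and 0.0128% for the interaction. All 10 genes passed the filter on low counts in each comparison. DESeq2 nevertheless gave no adjusted p to Tlr2, Tlr4, Tlr7 and Cd14 in NW and Water-Ethanol, so it could not call them there. Among the genes to which it gave none in NE were Tlr2, Tlr4 and Tlr7. Cd14, at 44 to 59 reads in NE, had fewer reads than Tlr4 (61 to 89) and Tlr7 (89 to 116). By edgeR the share of all tested genes called was 0% (NW), 0.457% (Water-Ethanol) and 0.313% (NE). It was 4.5% for the ethanol effect, 0% for the nicotine effect and 0% for the interaction. By limma on log2(FPKM + 1) the shares were 0%, 0% and 0.00608% for NW, Water-Ethanol and NE, and 3.93%, 0% and 0% for the ethanol effect, the nicotine effect and the interaction. The 95% confidence intervals of the 10 genes bounded how large a difference these data allow: from 0.694-fold (Tlr7) to 1.32-fold (Tlr2) in NW, and from 0.721-fold (Tlr3) to 1.29-fold (Nfkbia) in Water-Ethanol. In NE the outermost bounds were those of Tlr7 and Cd14, at log2 fold changes of -0.57 and 0.36.

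**Figure D2:**
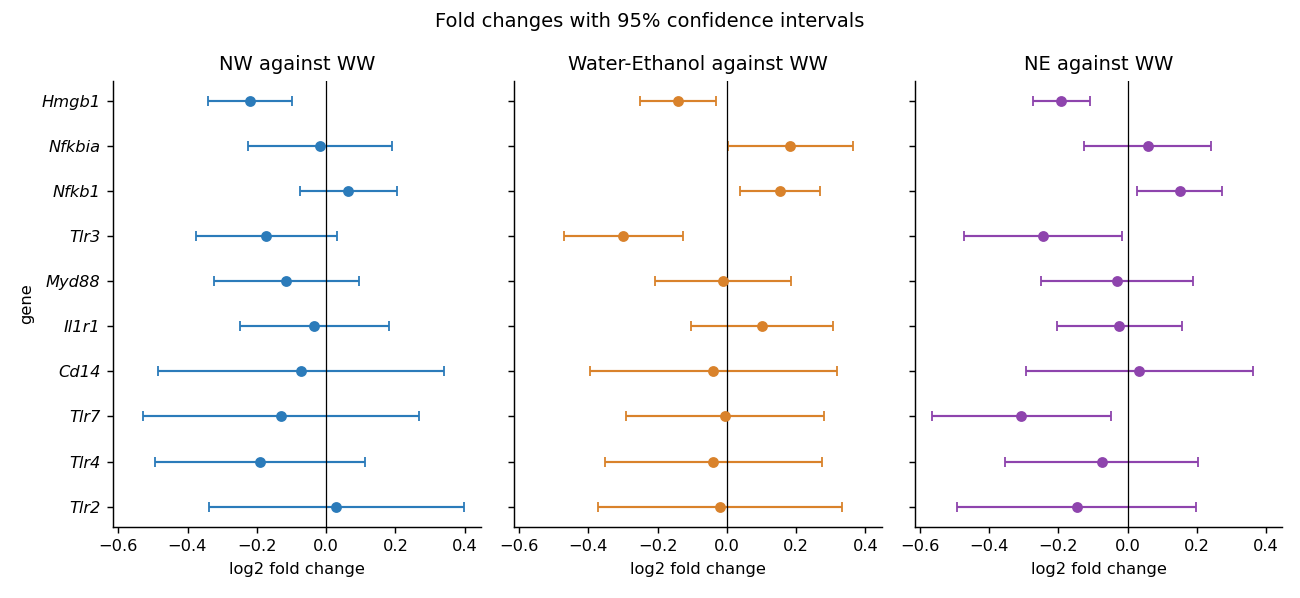
Log2 fold change of each of the 10 genes in NW, Water-Ethanol and NE mice relative to WW, with 95% confidence intervals from edgeR, not adjusted for the number of genes (4 mice per group). The Hmgb1 interval lay below 0 in all 3 panels, those of Tlr3 below and Nfkb1 above 0 in Water-Ethanol and NE, that of Nfkbia above 0 in Water-Ethanol and that of Tlr7 below 0 in NE.

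The receptors gave 1 gene, Tlr3, that separated a treated group from WW in Water-Ethanol mice. Tlr3 (chromosome 8: 45395665-45410539, minus strand, GRCm38) was at 16.18, 21.31, 18.41 and 17.69 CPM in WW and at 14.95, 14.19, 15.89 and 14.75 CPM in Water-Ethanol mice. The highest Water-Ethanol mouse was below the lowest WW mouse, and the fold change was 0.813 (log2 fold change -0.30, SE 0.0792). The edgeR adjusted p was 0.0858 (exact permutation p = 0.0286, the smallest that 4 against 4 mice allow). In NE mice Tlr3 was at 16.15, 14.24, 13.31 and 18.34 CPM. Of the NE mice 3 lay below every WW mouse and 1 within the WW range (log2 fold change -0.25, SE 0.105, edgeR adjusted p = 0.259). In NW mice Tlr3 was at 17.28, 17.51, 14.06 and 16.38 CPM, and a single mouse, NW replicate 3, lay below all WW mice (log2 fold change -0.17, SE 0.0933, edgeR adjusted p = 0.653). Over both nicotine states the ethanol effect on Tlr3 was -0.19 (log2, SE 0.0686), with an edgeR adjusted p of 0.115. Tlr3 in Water-Ethanol mice passed the threshold with DESeq2 (adjusted p = 0.0269) and in edgeR fits with a cerebellar marker score as covariate (adjusted p = 0.0442) or without WW replicate 4 (adjusted p = 0.046), and the adjusted p over its alternatives ran from 0.0269 to 0.214.

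Tlr7 (chromosome X: 167304926-167330571, minus strand) was lowest in NE mice, at 3.581, 3.347, 3.361 and 3.051 CPM, against 3.587, 4.386, 3.741 and 4.832 CPM in WW. The groups did not overlap in CPM, but the highest NE mouse and the lowest WW mouse were nearly equal. In FPKM they overlapped, at 0.835 to 1.023 in NE and 0.9873 to 1.366 in WW. The log2 fold change was -0.31 (SE 0.119) with an edgeR adjusted p of 0.215, which ranged from 0.185 to 0.396 over the alternatives. DESeq2, which gave Tlr7 no adjusted p here, is not part of that range. Water-Ethanol mice, at 4.329, 3.396, 4.789 and 3.957 CPM, lay within the WW range apart from 1 mouse below it. NW mice divided into 2 at 3.258 and 2.654 CPM and 2 at 4.439 and 4.777 CPM, so that NW had the widest spread of the 4 groups (SD 0.995 CPM).

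The remaining surface receptors did not separate any treated group from WW. Tlr4 (chromosome 4: 66827811-66842796, plus strand), the lipopolysaccharide receptor, was at 2.71 ± 0.346 CPM in WW, 2.37 ± 0.250 CPM in NW, 2.63 ± 0.413 CPM in Water-Ethanol and 2.56 ± 0.206 CPM in NE mice (SD, n = 4). Its ethanol effect over both nicotine states was 0.03 (log2, 95% confidence interval -0.16 to 0.23; edgeR adjusted p = 0.856). Tlr2 (chromosome 3: 83836272-83841608, minus strand), the lipoprotein receptor, was at 1.59 ± 0.260, 1.62 ± 0.209, 1.57 ± 0.178 and 1.44 ± 0.110 CPM in WW, NW, Water-Ethanol and NE mice. Its ethanol effect was -0.10 (log2, 95% confidence interval -0.32 to 0.12; edgeR adjusted p = 0.598). Cd14 (chromosome 18: 36725067-36726654, minus strand) was at 1.61 ± 0.123, 1.53 ± 0.381, 1.56 ± 0.294 and 1.65 ± 0.242 CPM in the same order. The ethanol effect on Cd14 was 0.03 (log2, 95% confidence interval -0.24 to 0.30, edgeR adjusted p = 0.907). The nicotine effect on Cd14 was 0.00 (log2). Its SE is derived from the estimate itself and is not reliable at 0.00, so no interval is given. Small changes of these 3 genes were therefore not detectable at this depth.

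Il1r1 (chromosome 1: 40225080-40316177, plus strand), which binds interleukin 1, was at 6.296, 6.465, 6.356 and 6.502 CPM in WW. These 4 values, from 172 to 199 reads, lay closer together (SD 0.0954 CPM) than the counting error alone gives (CV 7.25%). Their narrow range is therefore no measure of how constant Il1r1 was in WW. The treated groups spread to both sides of it, with 5.366 to 7.176 CPM in NW, 5.716 to 7.576 CPM in Water-Ethanol and 5.724 to 6.792 CPM in NE. The difference in spread was not tested. The ethanol effect was 0.05 (log2, SE 0.0709, edgeR adjusted p = 0.679). Myd88 (chromosome 9: 119335988-119340040, minus strand) was at 5.56 ± 0.457, 5.14 ± 0.317, 5.51 ± 0.306 and 5.45 ± 0.546 CPM in WW, NW, Water-Ethanol and NE mice. Its ethanol effect was 0.03 (log2, 95% confidence interval -0.10 to 0.17; edgeR adjusted p = 0.782), and all 4 groups overlapped.

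**Figure D3:**
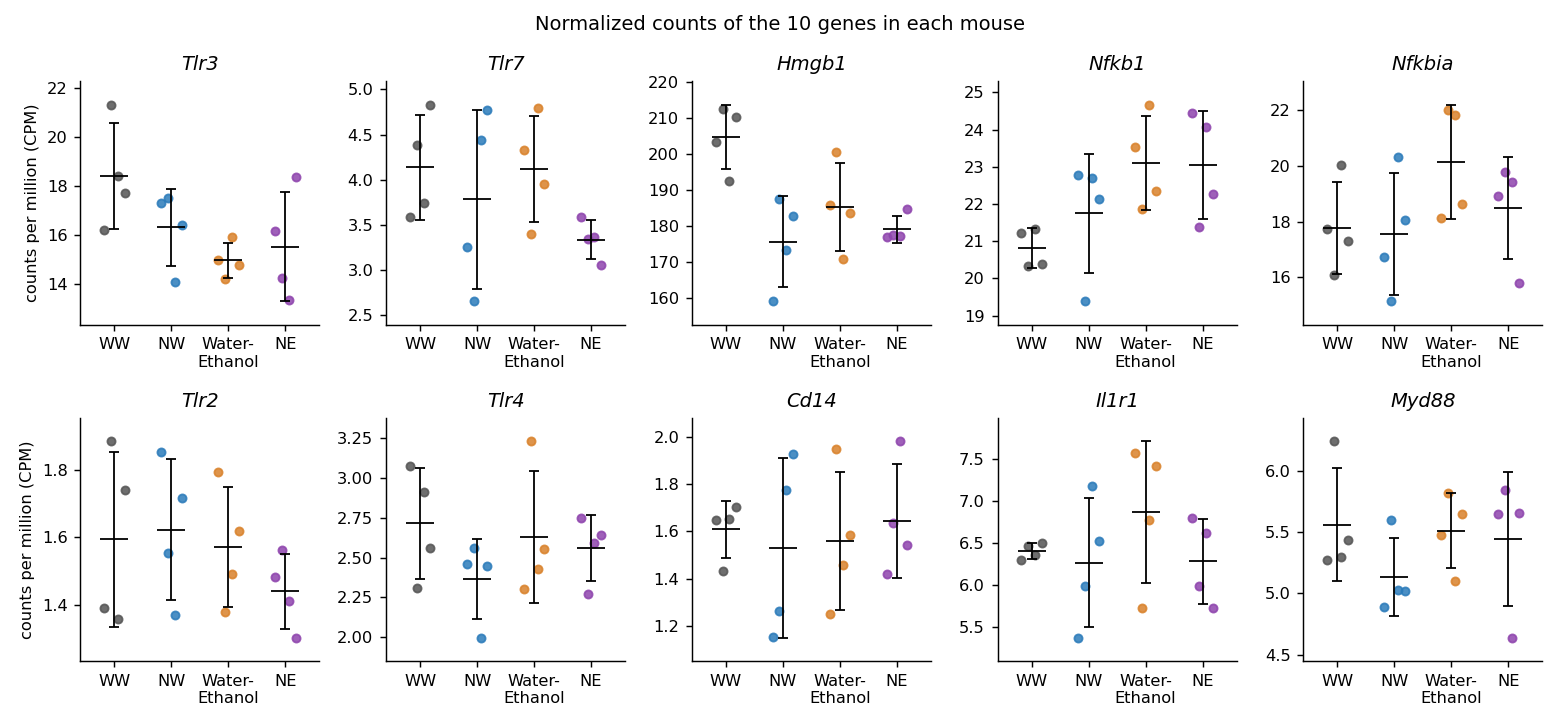
Normalized counts (CPM) of the 10 genes in each mouse, by group (points, mice; bars, mean ± SD, n = 4). Each vertical axis covers the range of its own gene and does not start at 0. Tlr3 in Water-Ethanol, Hmgb1 in NW and NE, Tlr7 in NE and Nfkb1 in Water-Ethanol and NE did not overlap with WW in CPM.

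Hmgb1 (chromosome 5: 149047227-149053037, minus strand) was lower than WW in the mean of each treated group. The WW mice were at 203.4, 212.5, 192.5 and 210.3 CPM and the NW mice at 159.0, 187.5, 173.1 and 182.7 CPM. No NW mouse reached the lowest WW mouse (0.859-fold; log2 fold change -0.22, SE 0.0556; edgeR adjusted p = 0.258). NE mice were at 176.9, 177.4, 177.0 and 184.5 CPM, also all below WW, and were closely grouped. The fold change in NE was 0.875-fold (log2 -0.19, SE 0.0378), with an edgeR adjusted p of 0.0584. Water-Ethanol mice were at 185.8, 200.6, 170.6 and 183.6 CPM, of which 1 lay within the WW range (log2 fold change -0.14, SE 0.0502, edgeR adjusted p = 0.158). The nicotine effect over both ethanol states was -0.14 (log2, SE 0.0374), with an edgeR adjusted p of 0.23. The interaction was 0.17 (log2, SE 0.0748), with an edgeR adjusted p of 0.711. DESeq2 called Hmgb1 in NW (adjusted p = 0.0384), in NE (adjusted p = 0.000884) and for the nicotine effect (adjusted p = 0.0489). In edgeR the NE difference passed with the cerebellar score as covariate (adjusted p = 0.0314) and without WW replicate 4 (adjusted p = 0.0382). The NW mice lowest in Hmgb1, replicates 1 and 3, were those highest in Rn45s. The log2 fold change in NW was -0.18 without replicate 1 and -0.22 without replicate 3 (edgeR adjusted p = 0.391 and 0.27). Over the alternatives the adjusted p ran from 0.0384 to 0.694 in NW and from 0.000884 to 0.217 in NE. Hmgb1 has near-identical copies elsewhere in the genome (13 related-sequence or pseudogene names in GENCODE M21, 1 of them in the count table with at most 4 reads), so reads may have been shared among them.

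Nfkb1 (chromosome 3: 135584655-135691547, minus strand) was higher in both ethanol groups. It was at 21.23, 20.34, 21.32 and 20.39 CPM in WW, at 23.54, 21.86, 24.67 and 22.34 CPM in Water-Ethanol mice and at 24.45, 21.39, 24.06 and 22.28 CPM in NE mice. In CPM all 8 mice given ethanol lay above all 4 WW mice, and the fold change was 1.11 in each group. The lowest NE mouse (21.39 CPM) and the highest WW mouse (21.32 CPM) were nearly equal. In FPKM the NE mice (5.242 to 6.037) overlapped with WW (4.99 to 5.354). Of all tested genes 10.8% did not overlap between Water-Ethanol and WW and 10.7% between NE and WW. The share that did so in both was not computed. The log2 fold changes were 0.15 (SE 0.0529, edgeR adjusted p = 0.151) and 0.15 (SE 0.056, edgeR adjusted p = 0.204). NW mice, at 22.77, 19.39, 22.71 and 22.14 CPM, overlapped with both, with 3 of 4 above WW. The ethanol effect over both nicotine states was 0.12 (log2, SE 0.0428, edgeR adjusted p = 0.115, range over the alternatives 0.0728 to 0.229), and no alternative called it.

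Nfkbia (chromosome 12: 55489409-55492647, minus strand), whose transcription rises when NF-kB is active, was at 17.72, 16.08, 20.03 and 17.30 CPM in WW and at 18.13, 21.99, 21.83 and 18.63 CPM in Water-Ethanol mice. Of the latter, 2 lay above all WW mice and 2 within their range (log2 fold change 0.18, SE 0.083, edgeR adjusted p = 0.252). NE mice were at 18.92, 19.79, 19.43 and 15.80 CPM, and NW mice at 16.74, 15.15, 20.31 and 18.07 CPM, both overlapping with WW. The ethanol effect was 0.13 (log2, SE 0.0673, edgeR adjusted p = 0.263). An exon of Nfkbia overlaps the microRNA gene Mir1198 on the opposite strand, and the use of strand in the counting is not given in the sources used here.

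Counts under weaker criteria were read against the background of all tested genes. At an unadjusted edgeR p under 0.05, 1 of the 10 genes was past the threshold in NW (Hmgb1, lower), where 8.44% of all tested genes were. In Water-Ethanol 4 of 10 were (Nfkb1 and Nfkbia higher, Tlr3 and Hmgb1 lower) against 19.3% of all genes, and in NE 4 of 10 (Nfkb1 higher, Tlr3, Tlr7 and Hmgb1 lower) against 17.5%. The counts for the ethanol effect, the nicotine effect and the interaction were 2 (Nfkb1 higher, Tlr3 lower), 1 (Hmgb1 lower) and 1 (Hmgb1) of 10, against 22.9%, 10.3% and 6.76% of all genes. Groups that did not overlap in CPM were found for 1 gene (NW), 2 genes (Water-Ethanol) and 3 genes (NE), against 5.96%, 10.8% and 10.7% of all tested genes. In FPKM, Nfkb1 and Tlr7 overlapped between NE and WW. The median log2 fold change of the 10 genes was -0.09 (NW), -0.02 (Water-Ethanol) and -0.05 (NE), and that of all tested genes was between 0.00 and 0.01. In NW 8 of the 10 estimates were negative, in Water-Ethanol 7 and in NE 7.

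The rest of the pathway was described with a list of 73 further genes in 9 groups, from receptors to cytokine targets, of which 59 to 62 had enough reads to be tested. In the ethanol effect over both nicotine states 5 of 62 passed (edgeR adjusted p under 0.05), 3 higher and 2 lower, against 4.5% of all tested genes, and the median log2 fold change of the list was 0.00, as it was over all genes. In Water-Ethanol alone 1 of 60 passed, and in NW, NE, the nicotine effect and the interaction none did by edgeR or limma. The edgeR share of all tested genes in Water-Ethanol was 0.457%. At an unadjusted p under 0.05 there were 3 of 59 for NW, 12 of 60 for Water-Ethanol and 12 of 59 for NE. The shares of all tested genes were 8.44%, 19.3% and 17.5% in the same order. There were 16 of 62 for the ethanol effect, 2 for the nicotine effect and 2 for the interaction, against 22.9%, 10.3% and 6.76%. DESeq2 called 1 pathway gene in Water-Ethanol and in NE (Traf6 in both), 6 for the ethanol effect and none in the other 3 comparisons. Its shares of all tested genes were 3.94% (Water-Ethanol), 3.38% (NE) and 7.01% (ethanol effect).

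Cd180, a TLR homologue that restrains Tlr4 signalling and is expressed in microglia and B cells, had the largest change of the pathway. It was at 2.562, 1.754, 2.086 and 1.919 CPM in WW and 2.012, 1.748, 1.701 and 2.113 CPM in NW mice. It was at 1.319, 0.7397, 0.5899 and 0.9353 CPM in Water-Ethanol and 0.4631, 1.079, 0.9746 and 1.234 CPM in NE mice. All 8 mice given ethanol lay below all 8 that were not. Cd180 is described because it was called, and the share of all genes that separate in this way was not computed. The ethanol effect was 0.461-fold (log2 -1.12, SE 0.171, edgeR adjusted p = 0.00247), and the comparisons with WW gave 0.434-fold in Water-Ethanol (edgeR adjusted p = 0.0471) and 0.448-fold in NE (edgeR adjusted p = 0.0629). The counts were low, 15 to 70 reads per mouse, and DESeq2 gave Cd180 no adjusted p because of its low mean. The Water-Ethanol call was lost when any single mouse other than WW replicate 4 was left out, whereas the call for the ethanol effect held in all 16 fits that left out a mouse. In NE mice Cd180 passed without WW replicate 4 (edgeR adjusted p = 0.0397).

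Among the kinases and ubiquitin ligases 4 of 15 genes passed for the ethanol effect, against 4.5% of all tested genes. This group is described apart because the calls fell in it, and over the whole list 5 of 62 passed. Traf6, the ubiquitin ligase downstream of Myd88, rose from 27.49, 27.32, 26.45 and 25.83 CPM in WW and 26.29, 27.19, 28.0 and 30.19 CPM in NW to 28.95, 32.61, 31.68 and 30.83 CPM in Water-Ethanol and 30.38, 32.06, 31.09 and 30.37 CPM in NE mice. All mice given ethanol were above all WW mice, while NW replicate 4 lay above 1 Water-Ethanol mouse (ethanol effect 1.13-fold, log2 0.18, SE 0.0356, edgeR adjusted p = 0.00956). Tab2, which couples Traf6 to the kinase Tak1, rose by 1.11-fold (log2 0.15, SE 0.0285, edgeR adjusted p = 0.00774). It was at 81.97 to 89.61 CPM in WW, 77.29 to 84.88 in NW, 88.77 to 96.19 in Water-Ethanol and 90.32 to 94.13 in NE mice. Traf3, which directs signals to the interferon branch, rose by 1.13-fold (log2 0.18, SE 0.043, edgeR adjusted p = 0.0236), although WW mice ranged widely from 86.43 to 107.1 CPM. Ikbkg (NEMO), the regulatory subunit of the IκB kinase complex, fell to 0.92-fold (log2 -0.12, SE 0.0293, edgeR adjusted p = 0.0258). It was at 51.87 to 54.42 CPM in WW and 50.74 to 52.99 CPM in NW, against 44.24 to 50.57 CPM in Water-Ethanol and 47.99 to 50.28 CPM in NE. Leaving out single mice kept Tab2 and Traf6 in 16 of 16 fits, Traf3 in 12 and Ikbkg in 9, so that 3 to 6 pathway genes passed. The 3 genes came without WW replicate 2, NW replicate 2, Water-Ethanol replicate 3 or NE replicate 3. In the pairwise comparisons Traf6 passed in Water-Ethanol mice (edgeR adjusted p = 0.0491, against 0.072 with all mice) and Traf3 in NE mice (edgeR adjusted p = 0.0492, against 0.17) when WW replicate 4 was left out.

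**Figure D4:**
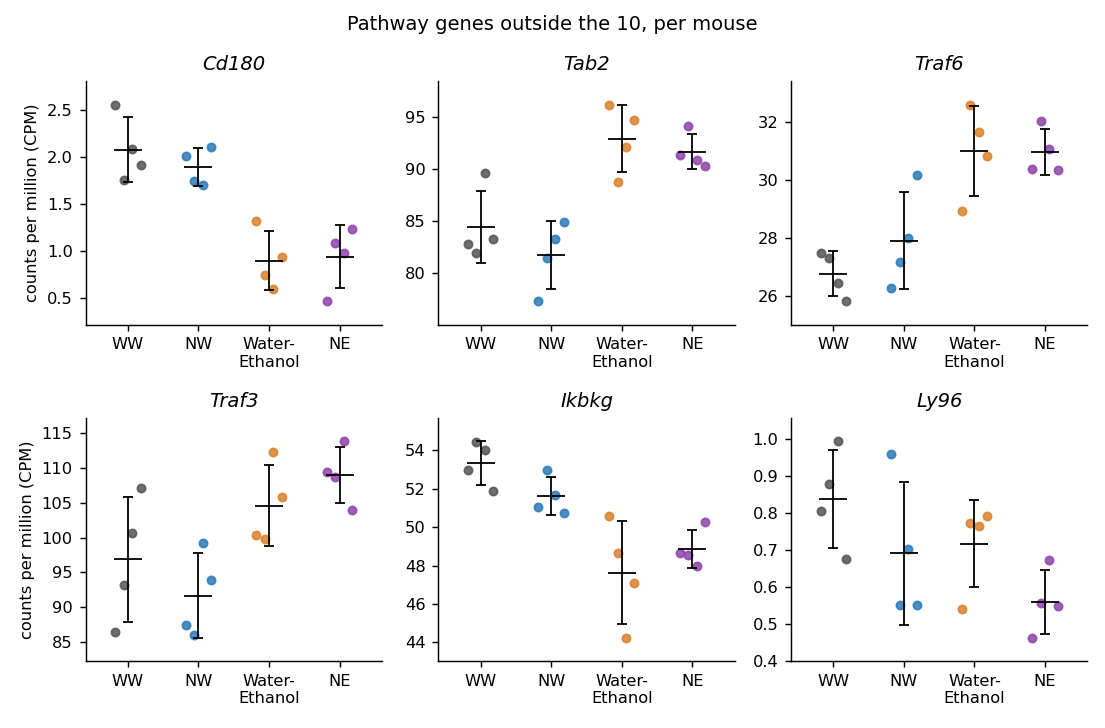
Normalized counts (CPM) in each mouse of the 5 pathway genes called for the ethanol effect and of Ly96, by group (points, mice; bars, mean ± SD, n = 4; the axes do not start at 0). The mice given ethanol were lower for Cd180 and Ikbkg and higher for Traf6 than all WW mice. Tab2 overlapped with WW in Water-Ethanol, and Traf3 in both Water-Ethanol and NE.

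The other groups of the pathway held no call by edgeR with all mice included and no covariate. Of the 10 inhibitors, which include Tnfaip3 and the remaining IκB proteins, none was past an unadjusted p of 0.05 in any comparison. Ly96 (MD-2), the lipopolysaccharide-binding partner of Tlr4, was at 0.8053, 0.8772, 0.9931 and 0.6751 CPM in WW and 0.4631, 0.5579, 0.6722 and 0.5484 CPM in NE mice, from 15 to 30 reads, and the groups did not overlap in CPM (log2 fold change -0.58, SE 0.21, edgeR adjusted p = 0.19). The highest NE mouse and the lowest WW mouse were nearly equal, and in FPKM the groups overlapped (0.9378 to 1.202 in NE, 1.166 to 2.239 in WW). Of all tested genes 10.7% did not overlap between NE and WW. Il1rap, the accessory chain of Il1r1, was at 49.75 to 56.04 CPM in WW and 46.63 to 47.49 CPM in NW mice (log2 fold change -0.15, SE 0.0475, edgeR adjusted p = 0.354). Hmgb2, a relative of Hmgb1, gave -0.28 in NW (log2, SE 0.118, edgeR adjusted p = 0.552) and Tab1 gave 0.13 (log2, SE 0.0573, edgeR adjusted p = 0.592). The mitochondrial superoxide dismutase Sod2, an NF-kB target, gave -0.12 in Water-Ethanol (log2, SE 0.0388, edgeR adjusted p = 0.139, and 0.049 without WW replicate 4) and an interaction of 0.15 (log2, SE 0.0708, edgeR adjusted p = 0.724). Il1rl1, the interleukin 33 receptor, had 0 to 12 reads per mouse and a nicotine effect of -0.85 (log2, SE 0.342, edgeR adjusted p = 0.403). The cytokine and chemokine targets Tnf, Il6, Ccl2, Ccl5 and Cxcl10 and the interleukin 1 genes Il1b, Il1rn and Il1r2 had too few reads to be tested in any comparison. The cytokines Il1a, Il18 and Il33 could be tested, with ethanol effects of 0.04, -0.13 and -0.13 (log2; edgeR adjusted p = 0.922, 0.212 and 0.31). Without both mice low in cerebellar genes Il33 passed for the ethanol effect (log2 -0.19, edgeR adjusted p = 0.0498), as did Ager, a receptor for Hmgb1 (log2 0.87, edgeR adjusted p = 0.0375, against 0.0801 with all mice). Ager also passed for the ethanol effect with all mice when the cerebellar score was a covariate.

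**Figure D5:**
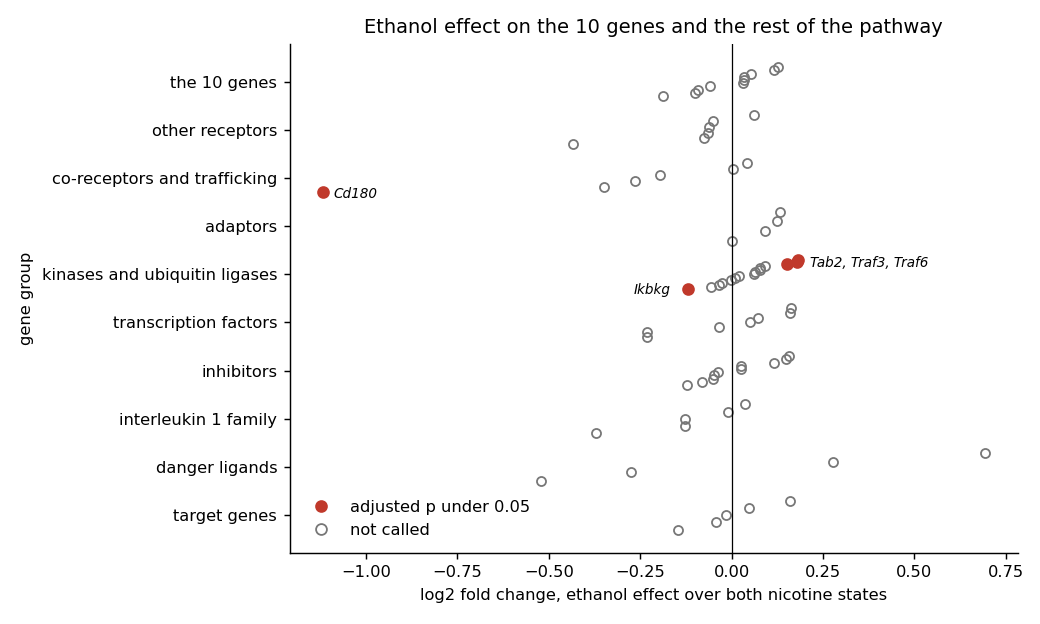
Log2 fold change of the ethanol effect over both nicotine states (16 mice) for the 10 genes and for the tested genes of the 9 other pathway groups, 1 point per gene, with genes called by edgeR filled and named. The 5 called genes were Cd180, Ikbkg, Tab2, Traf3 and Traf6, and the 10 genes lay between -0.19 and 0.13.

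In bulk tissue fewer cells of a type and less RNA per cell cannot be told apart, and the levels of cell type markers are therefore given beside these results. Of 13 microglial markers 4 were lower and none higher in the ethanol effect (edgeR adjusted p under 0.05, background 4.5% of all tested genes in either direction), 12 were lower at an unadjusted p under 0.05 (background 22.9%), and the median log2 fold change was -0.21. Their summed level was 376.2 to 477.1 CPM in WW, 373.7 to 413.2 in NW, 359.1 to 388.4 in Water-Ethanol and 331.1 to 408.3 in NE, and the defining marker Cx3cr1 was at 35.91 CPM or more in every mouse. Astrocyte (7 genes), oligodendrocyte (6) and endothelial (7) markers each had 1 gene lower, and choroid plexus markers (6) had 1 higher. Neuron (6), perivascular macrophage (5), cerebellum (7 tested), meningeal fibroblast (5), blood (1 tested), olfactory epithelium (4) and pituitary (1 tested) markers had none called, nor had the immediate early (10) and glucocorticoid responsive (9) genes. Fibroblast markers were lower at an unadjusted p in 4 of 5 genes. No neutrophil marker had enough reads to be tested, with Ngp at 1.611 CPM or less. Haemoglobin RNA was present in every brain: the FPKM table, which joins Hbb-b1 and Hbb-bs, lists Hbb-b1 at 72.5 to 114.1 FPKM in WW, 71.78 to 193.1 in NW, 89.26 to 136.6 in Water-Ethanol and 67.42 to 121.8 in NE, whereas the count table lists Hbb-bs at 0. The part of these cell types in the differences of Tlr3, Tlr7, Cd180, Hmgb1 and Nfkb1 was not tested.

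Within groups some pairs of the 10 genes varied together and others in opposite directions. After removal of the group means, the highest correlations of log2 CPM over the 16 mice were those of Tlr7 with Il1r1 (Pearson's r = 0.611), Cd14 with Nfkbia (0.602) and Hmgb1 with Myd88 (0.572). The lowest were those of Myd88 with Nfkb1 (r = -0.706), Hmgb1 with Nfkb1 (-0.682), Tlr3 with Nfkbia (-0.631) and Tlr4 with Tlr7 (-0.606). All genes of a mouse share a library and its dissection, so these are descriptions. Against the marker lists, of which the highest values are given here, Tlr7 followed the immediate early genes (r = 0.862, n = 16 mice), whose summed level in NW ran from 344.4 CPM in replicate 2, the mouse lowest in Tlr7, to 769.0 CPM in replicate 3. Tlr3 followed the oligodendrocyte markers (r = 0.753) and ran against the perivascular macrophage markers (r = -0.808). Among 14042 genes with a mean of at least 1 CPM, the gene most like each member in its variation within groups was Spg21 for Hmgb1 (r = 0.933), Cebpd for Nfkbia (0.909), Gab1 for Tlr3 (0.909) and 0610030E20Rik for Nfkb1 (0.901). It was Sult1a1 for Cd14 (0.891), Hira for Tlr7 (0.878), Lhx9 for Il1r1 (0.875), Il10rb for Tlr2 (0.848), Lenep for Tlr4 (0.844) and Akr1c18 for Myd88 (0.826). Each is the largest of 14042 values over 16 mice, and no test was made.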

How the data were processed

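Whole-brain RNA-seq libraries of 16 mice in 4 groups of 4 were grouped by the labels. The authors trimmed single reads with Trimmomatic 0.32, aligned them with TopHat2 to the mouse genome and deposited a table of whole read counts, not normalized, and a table of FPKM made with Cufflinks and Cuffdiff, in which depth is lost. The counting program and its strand setting are not given in the sources used here. The kit is unstranded by its number in the labels and stranded by the paper. The counts summed to 27100352 to 32880979 per mouse (median 29448284).

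Counts were tested with edgeR 4.0.16 in R 4.3.3 (quasi-likelihood test, TMM factors, filterByExpr, Benjamini-Hochberg adjustment over all genes tested, threshold 0.05). Pairwise comparisons with WW used the mice of both groups, and the 2 × 2 effects used all 16 mice. Each SE is the size of the log2 fold change over the square root of its F statistic. CPM were scaled with TMM factors over all mice. Single genes were compared by an exact two-sided permutation test over 70 assignments. The authors used Cuffdiff, which needs reads and was not rerun. Alternatives were RLE factors, DESeq2 1.42.0, no filter on low counts, a fit of all mice, limma 3.58.1 on log2(FPKM + 1) and log2(FPKM + 0.1) for genes with a mean of at least 0.1 FPKM, a cerebellar marker score as covariate and leaving out each mouse. Leaving out both mice low in cerebellar markers was added after seeing the data. Summaries and plots were made in Python 3.11.15 with matplotlib 3.10.9, pandas 2.3.3, scipy 1.17.1 and numpy 2.4.6. The edgeR, DESeq2 and limma tests were tried on simulated counts that held known changes, larger than most differences reported here. The exact permutation test and the fits with a covariate were not tried in this way.

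The 10 genes, the pathway list and the 15 marker and response lists were chosen with earlier results of these data known. Named genes were the 10, each listed pathway gene called in any comparison, the 3 pathway genes with the smallest p in each comparison, and the genes most correlated with each of the 10. Positions come from the deposited count table, and promoters are those of RefSeq, GRCm38.p6, in which Tlr4, Tlr7, Cd14 and Nfkb1 had no window.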

Additional observations from a re-analysis of the deposited data

Results flagged for a closer look

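Of 84 groups of 4 mice examined, 3 held a mouse whose gap to the nearest of the others exceeded Dixon's 95% critical value when divided by the range of the group. Chance alone gives about 1 in 20 groups, or 4.2 of 84. Hmgb1 in NE replicate 4 was at 184.5 CPM, above the other NE mice at 176.9 to 177.4 CPM, and still below every WW mouse. Myd88 in NE replicate 3 was at 4.638 CPM, below the other NE mice at 5.649 to 5.839 CPM. Ly96 in Water-Ethanol replicate 1 was at 0.5412 CPM, below the others at 0.7634 to 0.7914 CPM, from a small number of reads.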

How the results depend on the processing

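The numbers of genes called differed between settings. DESeq2 called 123 in NW, 603 in Water-Ethanol, 517 in NE, 1093 for the ethanol effect, 104 for the nicotine effect and 2 for the interaction, against 0, 70, 48, 702, 0 and 0 by edgeR in the same order. With the cerebellar score as covariate edgeR called 1 in NW, 753 in Water-Ethanol, 345 in NE and 1 for the interaction. The fit of all 16 mice called 112 in NW and 28 in Water-Ethanol, and the fit without a filter on low counts 143 in Water-Ethanol. Limma with either pseudocount called 0 in Water-Ethanol and 1 in NE. Without both mice low in cerebellar markers, 1061 genes were called for the ethanol effect. The causes of these shifts were not tested. Leaving out 1 mouse at a time, the genes called ranged from 0 to 797 (Water-Ethanol), 0 to 283 (NE), 280 to 899 (the ethanol effect) and 0 to 49 (the nicotine effect). The highest numbers in Water-Ethanol and in NE came without WW replicate 4. Of the 10 genes, DESeq2 called 1 in each of NW, Water-Ethanol, NE and the nicotine effect and the cerebellar covariate 1 in each of Water-Ethanol and NE. Fits without 1 mouse called 0 to 1 in Water-Ethanol and in NE, in both cases 1 without WW replicate 4. The other alternatives called none of the 10. Of the other pathway genes, DESeq2 and the fit of all mice called 1 each and the covariate fit 2 in NE, and limma called 0 in Water-Ethanol. Fits without 1 mouse called 0 to 3 in Water-Ethanol, 0 to 2 in NE and 3 to 6 for the ethanol effect. The 8 estimates that crossed the threshold under an alternative are those of Hmgb1 and Tlr3. Signs turned for estimates near 0 on the log2 scale, none of them called. Tlr2 in Water-Ethanol turned to 0.0003 with limma with a pseudocount of 1, 0.0037 with limma with a pseudocount of 0.1 and 0.0064 with the cerebellar covariate. Tlr7 in Water-Ethanol turned to 0.0667 with the cerebellar covariate. Cd14 in Water-Ethanol turned to 0.0075 with the cerebellar covariate. Tlr4 in the ethanol effect turned to -0.0128 with both mice low in cerebellar markers left out. Tlr2 in the nicotine effect turned to 0.009 with both mice low in cerebellar markers left out. Cd14 in the nicotine effect turned to -0.0012 with RLE factors, -0.0011 with DESeq2, -0.0049 with limma with a pseudocount of 1, -0.0125 with limma with a pseudocount of 0.1 and -0.0205 with both mice low in cerebellar markers left out. Signs that turned without 1 mouse in NW had log2 ranges of -0.0421 to 0.1268 (Tlr2), -0.267 to 0.0088 (Tlr7), -0.2108 to 0.0417 (Cd14), -0.1104 to 0.0322 (Il1r1) and -0.1009 to 0.048 (Nfkbia). Signs that turned without 1 mouse in Water-Ethanol had log2 ranges of -0.0932 to 0.0732 (Tlr2), -0.1569 to 0.0237 (Tlr4), -0.0857 to 0.0774 (Tlr7), -0.1678 to 0.052 (Cd14) and -0.0395 to 0.0497 (Myd88). Signs that turned without 1 mouse in NE had log2 ranges of -0.0712 to 0.0996 (Cd14), -0.0675 to 0.0155 (Il1r1) and -0.0631 to 0.0382 (Myd88). Signs that turned without 1 mouse in the ethanol effect had log2 ranges of -0.0233 to 0.0663 (Tlr4) and -0.0322 to 0.1014 (Cd14). Signs that turned without 1 mouse in the nicotine effect had log2 ranges of -0.0833 to 0.0007 (Tlr2) and -0.0676 to 0.0648 (Cd14). The log2 fold changes of Tlr3, Hmgb1 and Nfkb1 kept their direction under every alternative in all 6 comparisons. No paired analysis was possible because the labels give the groups no shared replicate numbers.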
